A study of Homo sapiens with 10 samples.

Results

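Aminoacyl-tRNA synthetases load each tRNA with its amino acid, and their transcripts were followed here in PANC-1 cells treated with LY. The 38 genes were taken by name from the 20263 genes of the expression table. They comprise 19 genes of cytosolic enzymes, 16 genes of mitochondrial enzymes and the 3 scaffold genes of the multisynthetase complex (AIMP1, AIMP2 and EEF1E1). PANC-1 is an established human cell line derived from a pancreatic cancer. LY was read as lycorine, which the series title names, an Amaryllidaceae alkaloid known to inhibit the ribosome. Transcripts were measured by RNA sequencing in 5 libraries of cells given 20 µM LY and 5 libraries of cells given the vehicle DMSO, and the series text puts the treatment at 24 h. That text counts 4 samples per group and names another RNA extraction than the sample labels, which list 5. The control columns are headed NC and were taken as DMSO. All 10 libraries come from the 1 line, and no source used here says whether the 5 libraries of a group were separate cultures, so p-values measure the spread between these libraries, which may be technical.

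Each synthetase recognises 1 amino acid and the tRNAs that carry it, and joins them at the cost of ATP. Cytosolic and mitochondrial protein synthesis mostly use separate enzymes, all encoded in the nucleus; GARS1 and KARS1 are known to serve both compartments, and the mitochondrial glutamine tRNA is charged indirectly, by amidation of a glutamate already attached. In the cytosol, several synthetases sit together with 3 non-catalytic proteins in the multisynthetase complex. Uncharged tRNA activates the kinase GCN2 (gene EIF2AK4), which leads to translation of the transcription factor ATF4, and many cytosolic synthetase genes are known ATF4 targets.

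Values are deposited TPM (a transcript measure normalised for length and library total). Log2 fold changes divide LY by DMSO, use log2(TPM + 1), and carry the SE of the limma fit. Read totals cannot be had from TPM, and depth is unknown. Mitochondrially encoded transcripts took 6.43% to 14.9% of the total in LY, against 12.2% to 37.5% in DMSO. The upper value belongs to 1 control library, NC-2, and the other 4 controls held 12.2% to 14.1%. NC-2 was the lowest control for 32 of the 38 genes, and calls that change without it are given both ways; the part of the mitochondrial share in the results was not tested. Keratin genes KRT8 (1343.8 ± 119.6 TPM in LY, against 1419 ± 212 TPM in DMSO) and KRT18 (1010.0 ± 66.8 TPM in LY, against 714 ± 70.2 TPM in DMSO) were abundant, and KRT19 averaged 21.0 ± 3.47 TPM in LY, against 148 ± 16.6 TPM in DMSO, whereas the ductal markers KRT7 and EPCAM averaged 0.0444 and 1.46 TPM in LY, against 0.0744 and 0.923 TPM in DMSO. Markers of acinar and endocrine cells were listed at 0 in all 10 libraries, as were PECAM1 and DCN. PTPRC and VWF averaged 0 and 0.0746 TPM in LY, against 0.00428 and 0.00490 TPM in DMSO, and the fibroblast marker COL1A1 averaged 0.455 ± 0.158 TPM in LY, against 2.85 ± 0.546 TPM in DMSO.

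The synthetase genes did not move as a block. The scaffold genes AIMP2 and AIMP1, both subunits of the phenylalanine enzyme (FARSB and FARSA), the threonine enzyme TARS1 and the mitochondrial methionine enzyme MARS2 rose by more than 1 log2 unit, while the glutamine enzyme QARS1 fell by more than 1. All 38 genes passed the filter on low values. Of these, 20 rose, 5 fell and 13 did not pass at an adjusted p of 0.05; over all 11663 tested genes 39.8% rose and 24.9% fell, 64.6% in either direction. Their median log2 fold change was 0.32, against 0.17 over all tested genes. The ranges of LY and DMSO were apart in 18 of the 38 genes (17 higher and 1 lower in LY), where 49.4% of all tested genes did not overlap. With NC-2 dropped and median-ratio scaling applied, which sets a typical gene's ratio between libraries to 1, 17 rose and 9 fell, against 36.9% and 33.2% of all tested genes. Fewer cells and less RNA per cell cannot be told apart in such bulk samples.

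**Figure D1:**
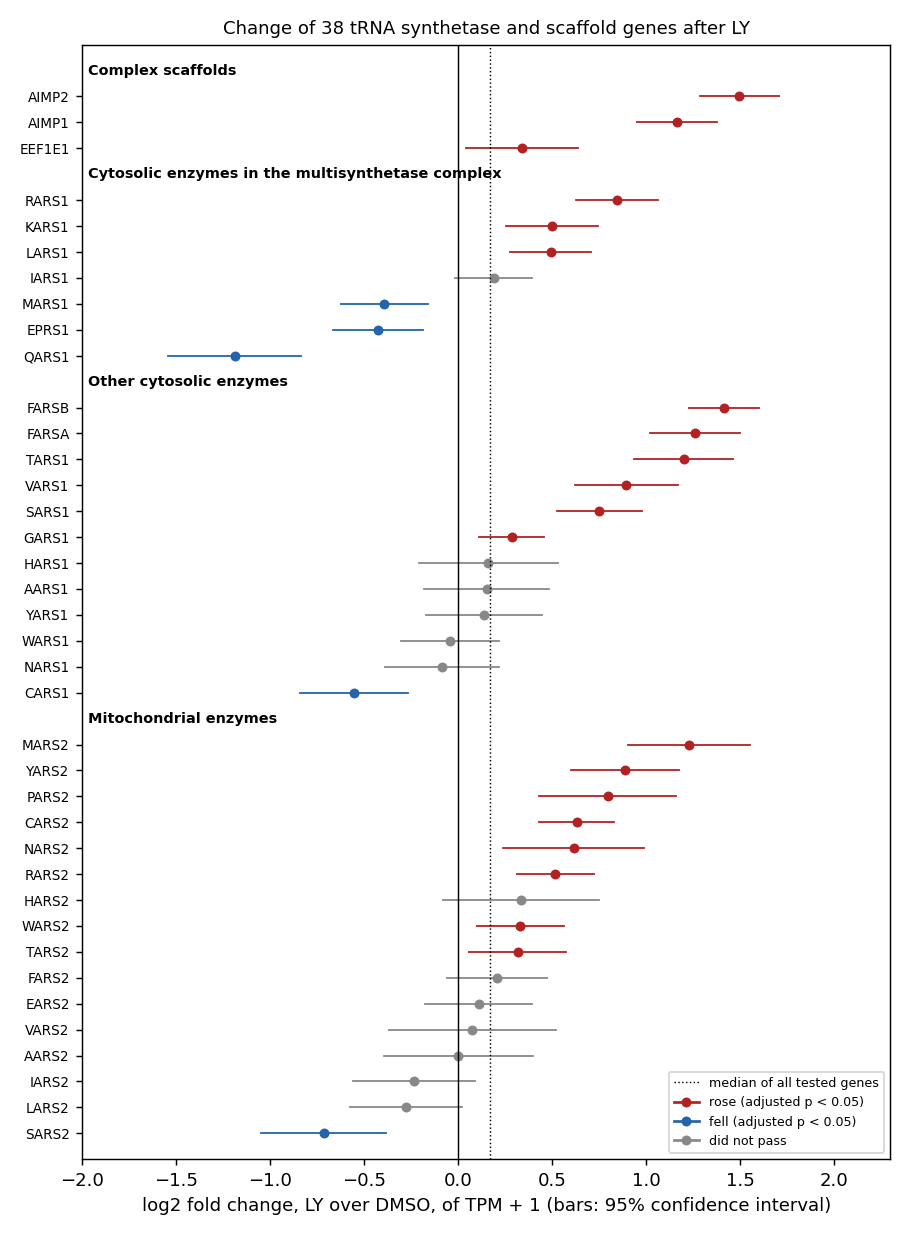
Log2 fold change of LY over DMSO with its 95% confidence interval for the 38 genes, by role (5 libraries per group; the dotted line is the median of all tested genes, 0.17). AIMP2 is the highest at 1.50 and QARS1 the lowest at -1.19, and genes that rose and genes that fell stand side by side among complex enzymes, other cytosolic enzymes and mitochondrial enzymes.

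Summed over each role, the 19 cytosolic enzyme genes held 4065 ± 251 TPM in LY, against 3024 ± 305 TPM in DMSO. The 16 mitochondrial enzyme genes together held 682 ± 49.1 TPM in LY, against 546 ± 79.5 TPM in DMSO. The 3 scaffold genes held 368 ± 17.9 TPM in LY, against 157 ± 13.9 TPM in DMSO (SD, n = 5 per group). The scaffold sum ran from 349 to 388 TPM in LY, against 135 to 173 TPM in DMSO. The cytosolic sum ran from 3817 to 4439 TPM in LY, against 2488 to 3251 TPM in DMSO. The mitochondrial sum ran from 615 to 729 TPM in LY, against 405 to 591 TPM in DMSO. For each of the 3 sums all LY libraries lay above all DMSO libraries. Mitochondrial enzymes made up 14.4 ± 0.412% of the enzyme TPM in LY, against 15.2 ± 0.731% in DMSO. These ranges overlapped only through NC-2 (14.0%). The share ran from 13.9% to 15.0% in LY, against 15.3% to 15.8% in the other controls.

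Among the scaffolds, AIMP2 (ENSG00000106305, chromosome 7, 6009245 to 6023834 on GRCh38), which holds the subcomplexes of the multisynthetase complex together, measured 252, 253, 262, 251 and 289 TPM in LY, against 109, 80.9, 94.0, 89.8 and 88.2 TPM in DMSO. Every LY library stood far above the highest DMSO library (log2 fold change 1.50 ± 0.10, adjusted p = 1.37e-07). AIMP1 (ENSG00000164022, chromosome 4, 106315544 to 106349226), which binds tRNA and is also known as the precursor of a secreted cytokine, measured 55.6, 48.4, 64.3, 62.5 and 52.7 TPM in LY, against 23.3, 25.1, 24.2, 24.1 and 26.6 TPM in DMSO. Its LY values were all above its DMSO values (1.16 ± 0.10, adjusted p = 9.03e-07). EEF1E1, known as AIMP3, a scaffold that associates with the methionine enzyme, measured 43.4, 47.0, 55.6, 58.0 and 46.2 TPM in LY, against 40.9, 28.8, 37.7, 44.9 and 45.8 TPM in DMSO. The groups overlapped and the rise was small (0.34 ± 0.14, adjusted p = 0.0462). It was lost in 14 of 24 alternative settings, among them leaving out NC-2 (log2 fold change 0.23, adjusted p = 0.0692), with adjusted p-values from 0.025 to 0.688 over the settings. AIMP2 shares 532 of its 1838 annotated exon bases with EIF2AK1 on the opposite strand, AIMP1 shares 387 of 3328 with TBCK, and EEF1E1 shares 393 of 2107 with a readthrough gene; whether the counting used strand is not given in the sources used here.

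Enzymes of the same complex went in both directions. Of the 7 complex enzymes in the list, RARS1, KARS1 and LARS1 rose, QARS1, EPRS1 and MARS1 fell, and IARS1 did not pass. Over all tested genes 39.8% rose and 24.9% fell, so both directions were common outside the complex too. QARS1 (ENSG00000172053, chromosome 3, 49095932 to 49105135), the glutamine enzyme, measured 57.0, 43.7, 61.7, 48.8 and 52.0 TPM in LY, against 119.8, 80.0, 134, 153 and 129 TPM in DMSO. It was the 1 gene of the 38 whose LY values all lay below its DMSO values (log2 fold change -1.19 ± 0.16, adjusted p = 4.76e-05). RARS1, the arginine enzyme, measured 251, 196, 263, 246 and 232 TPM in LY, against 133, 119, 144, 132 and 131 TPM in DMSO. All LY libraries were higher than all DMSO libraries (0.84 ± 0.10, adjusted p = 1.50e-05). KARS1, the lysine enzyme that serves cytosol and mitochondria through alternative splicing, measured 431, 401, 504, 473 and 444 TPM in LY, against 329.9, 251, 335, 331 and 351 TPM in DMSO. Its mean was the highest of the 38 transcripts in both groups, although GARS1 was higher in NC-2, and its values did not overlap either (0.50 ± 0.11, adjusted p = 0.00209). LARS1, the leucine enzyme, also known as a leucine sensor upstream of mTORC1, ran from 195 to 264 TPM in LY, against 144 to 168 TPM in DMSO (0.49 ± 0.10, adjusted p = 0.00091; 0.20 and not past the threshold with upper-quartile scaling). EPRS1, which joins the glutamate and proline enzymes in 1 chain, ran from 66.0 to 97.1 TPM in LY, against 93.0 to 112 TPM in DMSO (-0.43 ± 0.11, adjusted p = 0.00491). MARS1, the methionine enzyme that also charges the initiator tRNA, ran from 74.8 to 82.1 TPM in LY, against 80.7 to 117 TPM in DMSO (-0.39 ± 0.11, adjusted p = 0.00656); it shares 519 exon bases with ARHGAP9 and 355 with DDIT3, both on the opposite strand. For EPRS1 and MARS1 the groups overlapped only through NC-2. IARS1, the isoleucine enzyme, ran from 147 to 193 TPM in LY, against 136 to 154 TPM in DMSO (log2 fold change 0.19, 95% confidence interval -0.02 to 0.39, adjusted p = 0.0946).

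**Figure D2:**
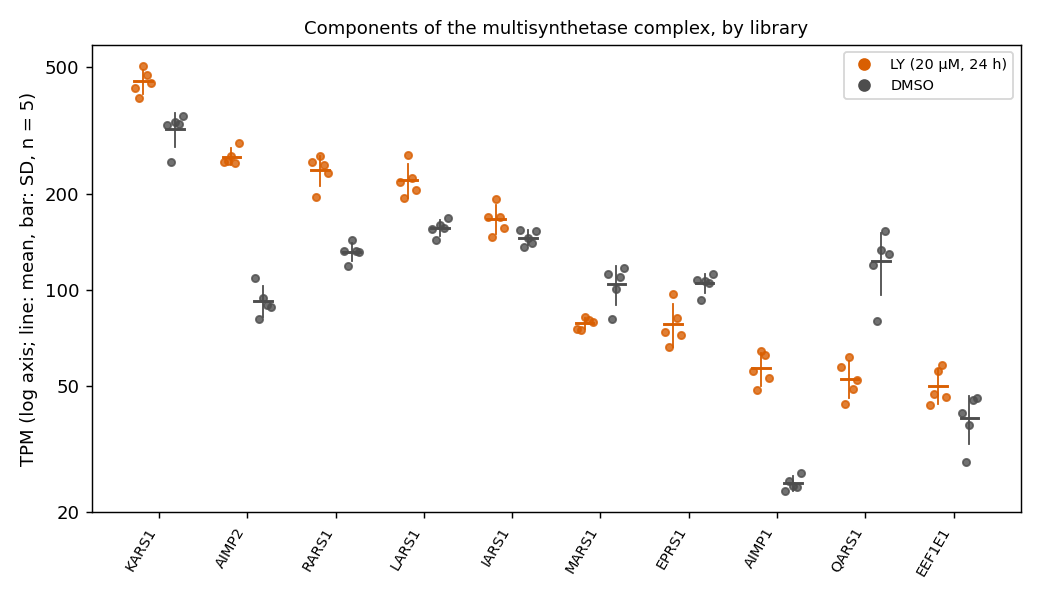
TPM of the 10 complex components in each library on a log axis (LY left, DMSO right of each pair; line for the mean, bar for the SD, 5 libraries per group). AIMP2, AIMP1 and RARS1 lie clear above their DMSO values and QARS1 clear below.

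The proportions among the 10 complex components differed between the groups. TPM is normalised for transcript length, so levels of different genes can be set side by side. Of the summed TPM of the 10, AIMP2 made up 15.9 ± 1.54% in LY, against 7.46 ± 0.716% in DMSO, which placed it in position 2 in LY and position 8 in DMSO. QARS1 made up 3.18 ± 0.258% in LY, against 9.83 ± 1.54% in DMSO, position 9 in LY and position 5 in DMSO. KARS1 was in position 1 in both groups, with 27.2 ± 0.524% in LY, against 25.7 ± 0.893% in DMSO. As a description chosen after the values were seen, the ratio of AIMP2 to QARS1 TPM ran from 4.26 to 5.80 in LY, against 0.587 to 1.01 in DMSO. AIMP1 stayed below AIMP2 in every library, with an AIMP1 to AIMP2 ratio from 0.182 to 0.249 in LY, against 0.214 to 0.310 in DMSO. These ratios do not depend on scaling a library by 1 factor, and quantile normalization was not applied to them.

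Among the 12 other cytosolic enzyme genes, 6 rose, 1 fell and 5 did not pass, where 39.8% of all tested genes rose and 24.9% fell. Quantile normalization and upper-quartile scaling each gave 5 rising and 3 falling. The phenylalanine enzyme is built from an alpha and a beta subunit, encoded by FARSA and FARSB. FARSB (ENSG00000116120, chromosome 2, 222570536 to 222656337) measured 220.4, 215, 255, 222 and 200.4 TPM in LY, against 83.2, 79.6, 81.9, 83.1 and 85.8 TPM in DMSO. FARSA (ENSG00000179115, chromosome 19, 12922479 to 12934037) measured 294, 361, 333, 319.6 and 369 TPM in LY, against 157, 113, 149, 141 and 137 TPM in DMSO. For both subunits every LY library was higher than every DMSO library (log2 fold changes 1.41 ± 0.09, adjusted p = 8.50e-08 for FARSB and 1.26 ± 0.11, adjusted p = 1.16e-06 for FARSA). The ratio of FARSA to FARSB ran from 1.30 to 1.84 in LY, against 1.43 to 1.89 in DMSO, so the ranges of the subunit ratio overlapped.

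TARS1 (ENSG00000113407, chromosome 5, 33440696 to 33469539), the threonine enzyme, measured 405, 384, 439.7, 432 and 334 TPM in LY, against 144, 186, 150.3, 191 and 198 TPM in DMSO. The groups were far apart (1.20 ± 0.12, adjusted p = 4.13e-06). VARS1, the valine enzyme, which binds the elongation factor eEF1, measured 138, 151, 143, 156 and 168 TPM in LY, against 85.7, 58.3, 90.3, 84.3 and 89.2 TPM in DMSO. It was higher in every LY library (0.90 ± 0.13, adjusted p = 5.85e-05). SARS1, which charges serine tRNAs and also the selenocysteine tRNA, ran from 279 to 344 TPM in LY, against 152 to 199 TPM in DMSO (0.75 ± 0.10, adjusted p = 5.32e-05). GARS1, the glycine enzyme of both compartments, measured 345, 341, 334, 335 and 315 TPM in LY, against 283, 287, 259, 265 and 276 TPM in DMSO. Its values did not overlap, but the difference was small (0.28 ± 0.08, adjusted p = 0.00749) and did not pass with median-ratio scaling (0.14), with quantile normalization (0.035) or after upper-quartile scaling (-0.0087), where its sign turned.

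CARS1, the cysteine enzyme, was the 1 decrease among these 12 as deposited, at 35.4 to 42.6 TPM in LY, against 42.4 to 73.5 TPM in DMSO (-0.56 ± 0.13, adjusted p = 0.00276). Its groups overlapped only through NC-2. The other 5 enzymes did not pass as deposited, all with overlapping ranges. NARS1 passed downward in 4 of 24 alternative settings and WARS1 in 2, for both genes among them quantile normalization and upper-quartile scaling. WARS1, the tryptophan enzyme, which is known to be induced by interferon gamma, measured 132, 109, 131, 109 and 147 TPM in LY, against 133, 106, 127, 153 and 128 TPM in DMSO (log2 fold change -0.04, 95% confidence interval -0.31 to 0.22, adjusted p = 0.76). HARS1, the histidine enzyme, measured 135, 171, 212, 183 and 192 TPM in LY, against 185, 104, 169, 172 and 176 TPM in DMSO (0.16, 95% confidence interval -0.21 to 0.53, adjusted p = 0.424). AARS1, the alanine enzyme, ran from 281 to 354 TPM in LY, against 191 to 331 TPM in DMSO (0.15, 95% confidence interval -0.18 to 0.48, adjusted p = 0.4). YARS1, the tyrosine enzyme, ran from 126 to 182 TPM in LY, against 105 to 166 TPM in DMSO (0.14, 95% confidence interval -0.17 to 0.44, adjusted p = 0.419). NARS1, the asparagine enzyme, ran from 164 to 252 TPM in LY, against 159 to 238 TPM in DMSO (-0.09, 95% confidence interval -0.39 to 0.22, adjusted p = 0.604). NC-2 was the lowest control for each of these 5.

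Synthetases fall into 2 catalytic classes with unrelated folds. Of the 9 cytosolic genes of class II, 6 rose, none fell and 3 missed the threshold (median log2 fold change 0.50). Of the 9 of class I, 3 rose, 3 fell and 3 missed the threshold (median 0.14). Over all tested genes 39.8% rose and 24.9% fell, and the classes were not tested against each other. EPRS1 holds both folds and is in neither count. The median of all tested genes was 0.17. With NC-2 dropped and median-ratio scaling applied, the counts were 6 rising and 1 falling for class II (NARS1) and 3 rising and 3 falling for class I; upper-quartile scaling gave 5 and 1 for class II and 2 and 4 for class I. Among mitochondrial enzymes, class I had 5 rising and none falling of 9 as deposited, but 5 rising and 2 falling (LARS2 and IARS2) when NC-2 alone was left out and with median-ratio scaling or quantile normalization. Class II had 3 rising and 1 falling of 7 as deposited, and 2 rising and 2 falling with NC-2 dropped and median-ratio scaling applied. WARS2, of class I, also lost its call in that setting. With median-ratio scaling alone class II had 2 rising and 1 falling. Upper-quartile scaling gave 3 rising and 2 falling for class I and 1 and 1 for class II.

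Mitochondrial enzymes charge the tRNAs encoded in the mitochondrial genome. Of 16 genes 8 rose, 1 fell and 7 missed the threshold, where 39.8% of all tested genes rose and 24.9% fell. Leaving out NC-2 alone gave 8 rising and 3 falling. The median log2 fold change was 0.32. They were less abundant than the cytosolic ones, with group means from 9.65 to 120.1 TPM in LY and from 6.83 to 125 TPM in DMSO, against cytosolic means from 38.9 to 450.5 TPM in LY and from 58.4 to 319.8 TPM in DMSO. MARS2 (ENSG00000247626, chromosome 2, 197705369 to 197708387), the mitochondrial methionine enzyme, measured 32.0, 31.4, 32.7, 42.2 and 39.7 TPM in LY, against 15.9, 9.91, 15.2, 15.3 and 17.4 TPM in DMSO. Every LY library was higher than every DMSO library (1.23 ± 0.15, adjusted p = 1.81e-05). YARS2 (ENSG00000139131, chromosome 12, 32727490 to 32755902), the tyrosine enzyme, measured 93.0, 82.5, 99.1, 117 and 96.8 TPM in LY, against 56.8, 38.7, 54.1, 53.4 and 59.8 TPM in DMSO. It was also higher throughout (0.89 ± 0.13, adjusted p = 8.94e-05).

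Lower down, PARS2, the proline enzyme, ran from 11.5 to 12.9 TPM in LY, against 4.66 to 9.56 TPM in DMSO (0.79 ± 0.17, adjusted p = 0.00124). CARS2, the cysteine enzyme, also known to form cysteine persulfides, ran from 114 to 131 TPM in LY, against 65.0 to 82.0 TPM in DMSO (0.63 ± 0.09, adjusted p = 7.23e-05). RARS2, the arginine enzyme, ran from 42.2 to 56.5 TPM in LY, against 32.7 to 35.9 TPM in DMSO (0.52 ± 0.09, adjusted p = 0.000446). In these 3 genes the groups did not overlap. NARS2 rose with overlap (0.61 ± 0.17, adjusted p = 0.00767). NARS2 and RARS2 were not past the threshold with upper-quartile scaling. WARS2 (0.33 ± 0.11, adjusted p = 0.0164) and TARS2 (0.32 ± 0.12, adjusted p = 0.0324) rose as deposited but did not pass with NC-2 dropped and median-ratio scaling applied (adjusted p = 0.0632 and 0.165). TARS2 lost its call in 11 of 24 settings, among them median-ratio scaling alone, the exact Wilcoxon test and leaving out LY-2, LY-3 or LY-5 singly, with adjusted p-values from 0.0106 to 0.816 over the settings. SARS2, the serine enzyme, was the 1 decrease, at 13.2 to 17.7 TPM in LY, against 16.5 to 30.9 TPM in DMSO (-0.72 ± 0.15, adjusted p = 0.00135); it shares 1492 of its 3231 exon bases with an unnamed gene on its own strand, and its groups overlapped only through NC-2.

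The other 7 mitochondrial genes did not pass. LARS2 (-0.28 ± 0.14, adjusted p = 0.0928) and IARS2 (-0.24 ± 0.15, adjusted p = 0.18) were lower in LY on average, and both passed downward when NC-2 was left out (log2 fold changes -0.39 and -0.35, adjusted p = 0.00629 and 0.0159), and likewise in 3 alternative scalings (median-ratio, quantile, upper-quartile). IARS2 measured 98.5, 82.2, 126, 114 and 107 TPM in LY, against 129, 88.9, 129.8, 135 and 142 TPM in DMSO, and NC-2 was the control that reached down into the LY range. AARS2, the gene of the 38 with the smallest difference, measured 9.80, 11.0, 10.1, 14.1 and 12.5 TPM in LY, against 13.4, 6.56, 13.7, 12.8 and 12.3 TPM in DMSO (log2 fold change 0.0013, 95% confidence interval -0.40 to 0.40, adjusted p = 0.996). With NC-2 dropped and median-ratio scaling applied, AARS2 was lower in LY (-0.25, adjusted p = 0.0475). FARS2 (0.21 ± 0.12), EARS2 (0.11 ± 0.13), VARS2 (0.08 ± 0.20) and HARS2 (0.33 ± 0.19) had overlapping ranges; VARS2 shares 1858 of its 8448 exon bases with GTF2H4 on the same strand.

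**Figure D3:**
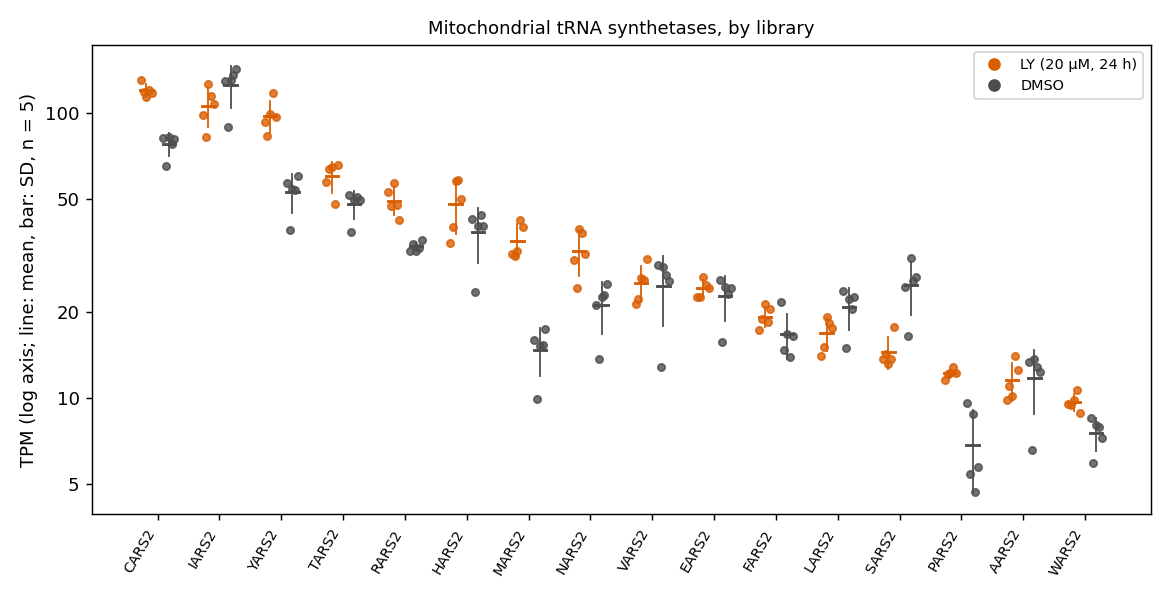
TPM of the 16 mitochondrial enzymes in each library on a log axis (LY left, DMSO right of each pair; line for the mean, bar for the SD, 5 libraries per group). MARS2, YARS2, CARS2, RARS2, PARS2 and WARS2 lie above their DMSO values in every LY library, and the lowest control of most genes is NC-2.

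The cytosolic and mitochondrial histidine enzymes are neighbours on chromosome 5, transcribed away from each other from start sites 85 bases apart. The stretch below is shown because both genes start in it: it is the part shared by both RefSeq promoter windows (chr5:140691321-140691504, GRCh38.p14, plus strand), and the 2 capitals mark, as plus-strand bases, the start site of HARS1 (T; HARS1 itself is read from the minus strand) and that of HARS2 (G).
HARS1/HARS2: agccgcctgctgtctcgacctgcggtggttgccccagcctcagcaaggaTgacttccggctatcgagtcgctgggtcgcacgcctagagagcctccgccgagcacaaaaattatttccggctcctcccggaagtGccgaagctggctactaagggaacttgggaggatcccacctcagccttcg
HARS2 measured 35.0, 39.9, 57.4, 57.9 and 49.7 TPM in LY, against 42.4, 23.6, 40.2, 43.8 and 40.1 TPM in DMSO (log2 fold change 0.33, 95% confidence interval -0.08 to 0.75, adjusted p = 0.143), beside 0.16 for HARS1. Neither gene passed, and both had their lowest control in NC-2. The ratio of HARS1 to HARS2 TPM ran from 3.16 to 4.29 in LY, against 3.92 to 4.40 in DMSO, with overlapping ranges. The 2 genes share 437 annotated exon bases on opposite strands.

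Set against its mitochondrial partner for the same amino acid, the cytosolic enzyme moved in either direction. Each ratio divides the cytosolic TPM + 1 by the mitochondrial TPM + 1 within a library, so scaling a library by 1 factor hardly touches it. Of 17 ratios, which share EPRS1 and FARS2, 6 were higher in LY without overlap, 6 were lower without overlap and 5 overlapped. No test was run on these ratios. Among single genes 49.4% did not overlap, but that is another measure, and the share among ratios of other gene pairs was not computed. The 2 genes changed in opposite directions in 4 of the 17. Over all tested genes 39.8% rose and 24.9% fell, so opposite calls also arise between unrelated genes. Whether 4 of 17 exceeds that was not tested. For methionine, MARS1 fell and MARS2 rose, and the ratio ran from 1.88 to 2.47 in LY, against 6.24 to 7.49 in DMSO. For cysteine, CARS1 fell and CARS2 rose, and the ratio ran from 0.276 to 0.365 in LY, against 0.658 to 0.909 in DMSO; this was the 1 amino acid for which the mitochondrial transcript was the more abundant in all 10 libraries. For proline, EPRS1 fell and PARS2 rose (5.13 to 7.42 in LY, against 10.2 to 18.7 in DMSO). Serine went the other way: SARS1 rose and SARS2 fell, and the ratio ran from 17.7 to 24.3 in LY, against 6.28 to 8.77 in DMSO. These 8 genes kept their direction and their call in all 24 alternative settings.

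Other ratios involved 1 partner that changed and 1 that did not pass. For phenylalanine the ratio of FARSB to FARS2 ran from 9.35 to 12.1 in LY, against 3.71 to 5.63 in DMSO. For valine the ratio of VARS1 to VARS2 ran from 5.28 to 6.53 in LY, against 2.86 to 4.28 in DMSO, and for leucine the ratio of LARS1 to LARS2 from 11.1 to 14.6 in LY, against 6.32 to 9.10 in DMSO. For tyrosine the ratio of YARS1 to YARS2 was lower, from 1.35 to 1.82 in LY, against 2.62 to 2.90 in DMSO, and for asparagine the ratio of NARS1 to NARS2 from 4.88 to 7.69 in LY, against 8.91 to 10.9 in DMSO. Both partners rose as deposited for threonine and arginine (the calls of TARS2 and RARS2 depended on the setting, as given above), and the threonine ratio was still higher in LY (5.02 to 8.85 in LY, against 2.77 to 4.77 in DMSO), whereas the arginine ratio overlapped (4.09 to 5.39 in LY, against 3.37 to 4.29 in DMSO). For alanine, histidine and isoleucine neither partner passed as deposited, and the ratios overlapped. The isoleucine ratio ran from 1.45 to 1.77 in LY, against 1.04 to 1.52 in DMSO, and overlapped only through NC-2. IARS2 passed downward without NC-2, as given above.

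**Figure D4:**
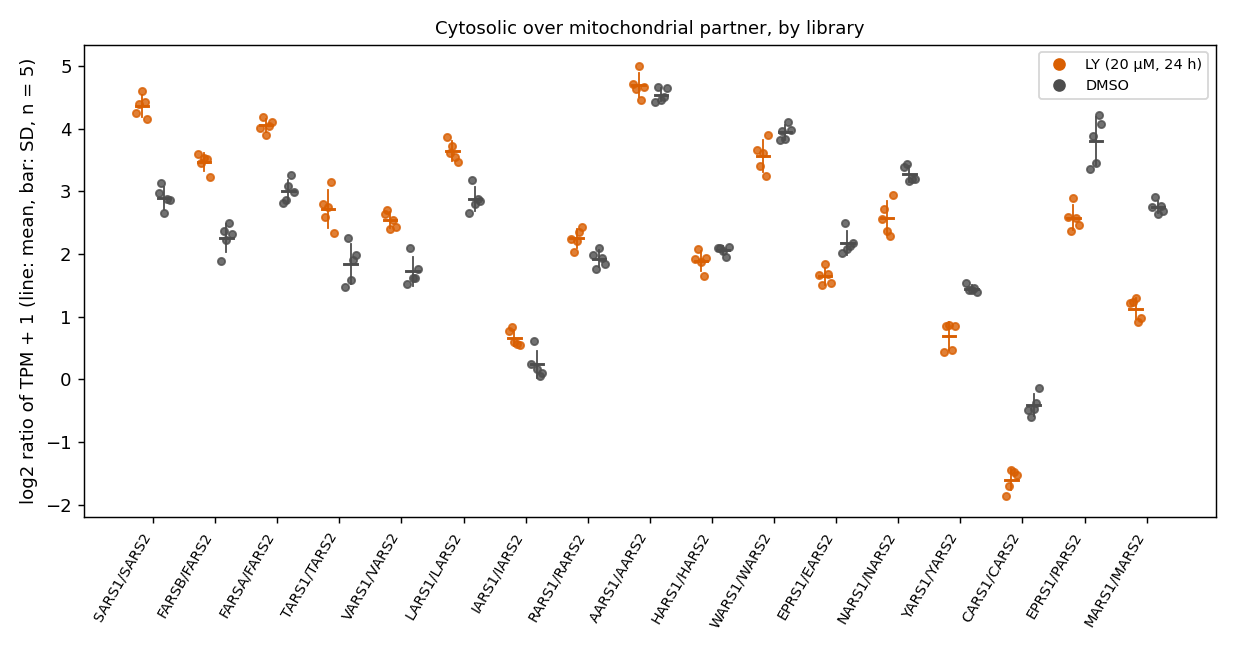
Log2 ratio of the cytosolic to the mitochondrial enzyme (TPM + 1) in each library for 17 pairs, ordered by the difference of the means (LY left, DMSO right; line for the mean, bar for the SD, 5 libraries per group). SARS1/SARS2 stands at the left end with LY above DMSO by 1.47, and MARS1/MARS2 at the right end with LY below DMSO (-1.62).

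ATF4, the transcription factor of the amino acid response, had higher transcript levels in LY (818, 986, 706, 851 and 749 TPM in LY, against 392, 335, 441, 455 and 507 TPM in DMSO; 0.95 ± 0.13, adjusted p = 5.91e-05). The list of 12 cytosolic synthetase genes known as ATF4 targets, taken from general knowledge, did not follow in 1 direction: 4 rose (GARS1, LARS1, SARS1 and TARS1), 3 fell (CARS1, EPRS1 and MARS1) and 5 did not pass, with a median log2 fold change of 0.14, where 39.8% of all tested genes rose and 24.9% fell. The balance turned with the scaling: 3 rose and 5 fell with quantile normalization, and 2 rose and 5 fell with upper-quartile scaling. Of the 7 other cytosolic enzyme genes 5 rose, 1 fell and 1 did not pass, with a median of 0.84. With NC-2 dropped and median-ratio scaling applied, the ATF4 list had 4 rising and 4 falling, and the others 5 rising and 1 falling.

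Promoters were read for the element that C/EBP-ATF dimers are known to bind, spelled TGATGNAA on either strand. RefSeq promoter windows of 300 bases (250 before to 50 after a start site, GRCh38.p14) were given for 33 of the 38 genes. The element stood in the windows of 8 of these 33 genes, and in those of 555 of 15272 listed genes with a window (3.63%). It stood in 7 of the 10 ATF4-list genes with a window. The 8 stretches are printed with 20 bases on each side, in the orientation of the gene, with the match in capitals, because the same letters stand in genes with different calls. The first 3 genes rose, the next 2 fell and the last 3 did not pass.
TARS1 (chr5:33440947-33440994, plus strand): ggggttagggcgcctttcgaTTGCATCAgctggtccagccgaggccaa
GARS1 (chr7:30594825-30594872, plus strand): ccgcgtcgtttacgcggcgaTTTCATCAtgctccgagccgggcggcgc
YARS2 (chr12:32756067-32756114, minus strand): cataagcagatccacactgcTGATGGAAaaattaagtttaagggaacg
CARS1 (chr11:3057398-3057445, minus strand): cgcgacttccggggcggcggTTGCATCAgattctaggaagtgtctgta
MARS1 (chr12:57488044-57488091, plus strand): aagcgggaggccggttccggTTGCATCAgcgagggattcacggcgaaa
AARS1 (chr16:70289666-70289713, minus strand): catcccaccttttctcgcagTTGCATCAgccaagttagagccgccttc
IARS1 (chr9:92293683-92293730, minus strand): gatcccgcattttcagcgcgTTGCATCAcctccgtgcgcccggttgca
NARS1 (chr18:57621795-57621842, minus strand): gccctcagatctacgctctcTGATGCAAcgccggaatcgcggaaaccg
6 of these read TTGCATCA or its reverse complement TGATGCAA in full with the same base at the open position. In CARS1, MARS1, IARS1, TARS1, NARS1 and GARS1 the match began within 33 bases of a start site. A match is a description of the letters and not evidence of binding. WARS1 held the core of the interferon-stimulated response element (GAAA and GAAA, 2 open bases between them, either strand) in 1 of its windows (642 of 15272 genes, 4.2%, held it), and its stretch is shown because WARS1 is the known interferon-induced member.
WARS1 (chr14:100375373-100375422, minus strand): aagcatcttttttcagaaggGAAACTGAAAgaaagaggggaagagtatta
WARS1 did not pass in either direction as deposited.

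Other genes of tRNA charging were read from 5 lists. Of 7 genes for amidation, formylation and selenocysteine on tRNA, 4 rose, 1 fell and 2 did not pass, where 39.8% of all tested genes rose and 24.9% fell. Leaving out NC-2 gave 3 rising and 1 falling, and upper-quartile scaling 3 and 3. The amidotransferase that completes mitochondrial glutamine charging has 3 subunits, and these did not move together: GATC rose (79.5, 70.0, 85.0, 78.2 and 70.0 TPM in LY, against 33.9, 34.6, 36.6, 33.2 and 34.8 TPM in DMSO; 1.12 ± 0.09, adjusted p = 4.22e-07), GATB fell (14.0 to 18.6 TPM in LY, against 21.2 to 26.7 TPM in DMSO; -0.49 ± 0.11, adjusted p = 0.00149) and QRSL1 rose slightly (0.27 ± 0.11, adjusted p = 0.0439). As deposited, QRSL1 was the median of the 7 genes. That median was 0.13 with median-ratio scaling and -0.0094 with upper-quartile scaling, and 3 of the 7 rose in each. The small rise of QRSL1 thus depended on the scaling. The ratio of GATC to GATB ran from 3.76 to 5.58 in LY, against 1.26 to 1.64 in DMSO. SEPSECS and PSTK, which turn serine on its tRNA into selenocysteine, rose (0.87 ± 0.14 and 0.68 ± 0.18), next to SARS1, which supplies that serine. Of 5 editing and hydrolysis genes 3 rose and none fell as deposited (2 and 1 with upper-quartile scaling), led by PTRH2, a peptidyl-tRNA hydrolase (107 to 153 TPM in LY, against 45.7 to 60.7 TPM in DMSO; 1.18 ± 0.12, adjusted p = 3.99e-06).

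Of 7 genes that deliver charged tRNA to the ribosome none rose, 1 fell and 6 did not pass. Over all tested genes 39.8% rose and 24.9% fell. Of the 7, 2 fell when NC-2 alone was left out, and none by the exact Wilcoxon test. EEF1A1, the main carrier, measured 5549, 5424, 10027, 8773 and 8709 TPM in LY, against 6520.2, 5840.3, 10306, 6567 and 6849.9 TPM in DMSO (0.08, 95% confidence interval -0.41 to 0.56, adjusted p = 0.777). The groups overlapped, and values within each group differed by more than the group means did. TSFM, the nucleotide exchange factor of the mitochondrial carrier, fell (-0.74 ± 0.18, adjusted p = 0.00377). With NC-2 dropped and median-ratio scaling applied, 5 of the 7 fell, where 33.2% of all tested genes fell. Of 24 genes of tRNA maturation and export 13 rose, 2 fell and 9 did not pass, where 39.8% of all tested genes rose and 24.9% fell. Upper-quartile scaling gave 8 rising and 4 falling, removal of the abundant genes 8 and 3, and the exact Wilcoxon test 9 and 1. Subunits of RNase P, which trims the 5′ end of tRNAs, led the increases: RPP40 (30.5 to 47.9 TPM in LY, against 12.9 to 19.6 TPM in DMSO; 1.19 ± 0.14, adjusted p = 1.49e-05), RPP38 (1.10 ± 0.18) and RPP25 (1.06 ± 0.26). POP5, of the same enzyme, fell (19.2 to 25.5 TPM in LY, against 28.3 to 59.9 TPM in DMSO; -1.14 ± 0.19, adjusted p = 0.000239), as did TSEN34, a subunit of the tRNA splicing endonuclease (47.1 to 78.4 TPM in LY, against 67.7 to 165 TPM in DMSO; -1.03 ± 0.23, adjusted p = 0.00211). XPOT, the nuclear export receptor of tRNA, did not pass (-0.05, 95% confidence interval -0.25 to 0.15, adjusted p = 0.643).

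Of the 4 genes of the pathway that responds to uncharged tRNA, EIF2AK4, the kinase GCN2, fell (32.4, 32.2, 29.8, 30.9 and 28.9 TPM in LY, against 44.0, 39.9, 44.3, 43.1 and 41.7 TPM in DMSO; -0.45 ± 0.08, adjusted p = 0.00031), with every LY library below every DMSO library. GCN1, its ribosome-bound partner, did not pass as deposited (0.01, 95% confidence interval -0.23 to 0.26, adjusted p = 0.927), but was lower in LY with quantile (-0.26) and upper-quartile scaling (-0.28). IMPACT, which competes for GCN1, rose (0.68 ± 0.10, adjusted p = 6.27e-05), and ATF4 rose as described.

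**Figure D5:**
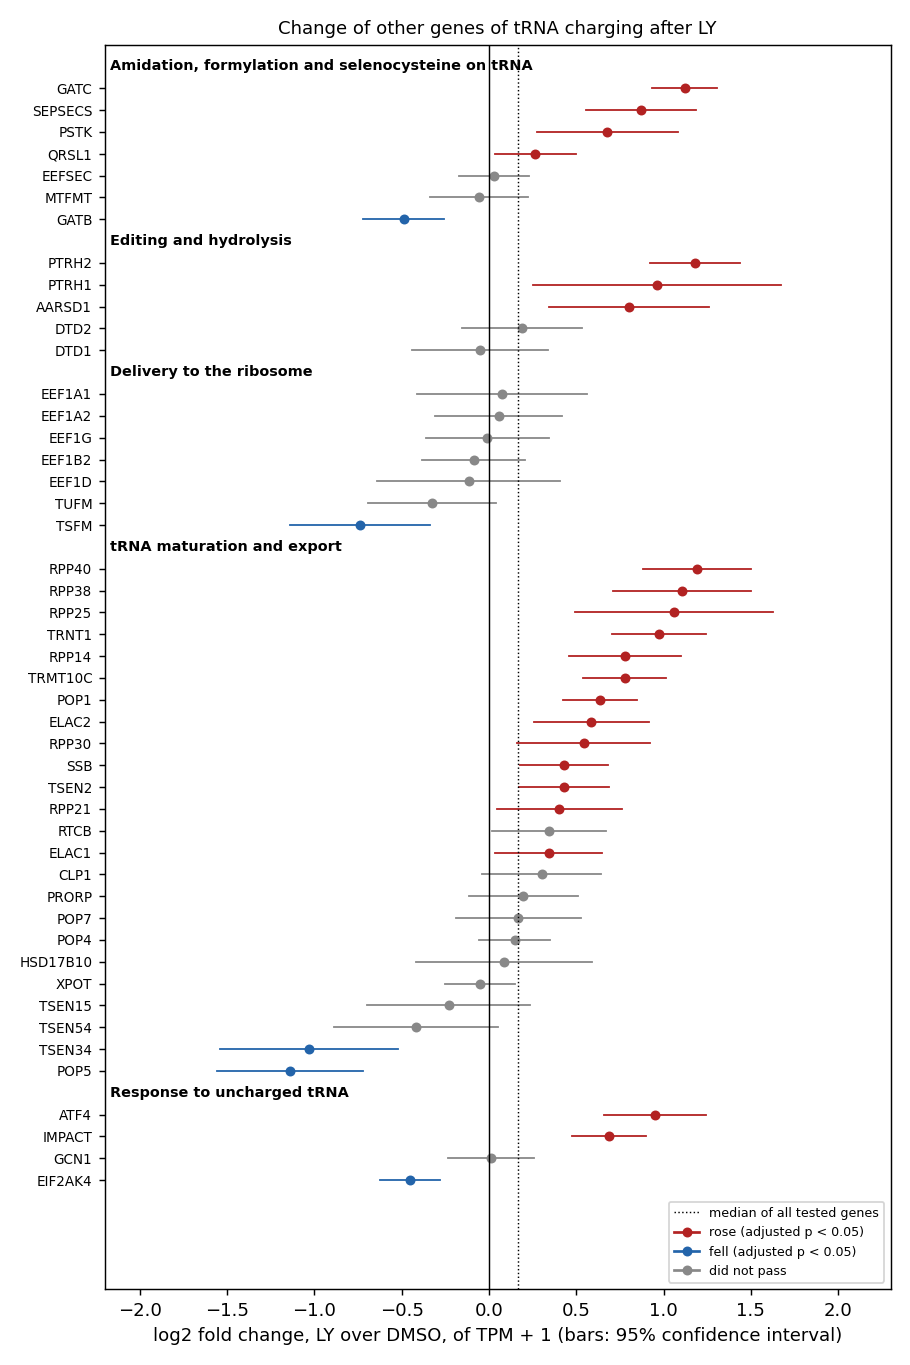
Log2 fold change of LY over DMSO with its 95% confidence interval for 47 further genes of tRNA charging, by list (5 libraries per group; the dotted line is the median of all tested genes, 0.17). In the delivery list TSFM alone lies clear of 0, while the maturation list runs from RPP40 at 1.19 to POP5 at -1.14.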

How the data were processed

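RNA of PANC-1 cells was sequenced in 5 LY and 5 DMSO libraries. The authors deposited TPM, 1 column per library; per the submitters' processing notes the builds hg38, GRCm38 and mm10 were listed without roles, and the aligner, counter and annotation are not stated there or elsewhere in the labels. RNA came from a column kit and libraries from an mRNA kit, per the labels' protocols. Control columns are named NC and were assigned to DMSO as a whole. Each column sums to 999932 to 999967 TPM. Gene IDs were named from a table of symbols (20148 of 20263 matched). Positions and exon overlaps came from GENCODE 29 (GRCh38), and promoters from RefSeq (GRCh38.p14). The 33 genes had 45 promoter windows. For each gene the end of at least 1 window was found in a transcript of that gene, and windows were not checked singly.

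A gene was kept when 5 or more of the 10 libraries reached 1 TPM (11663 genes). Log2(TPM + 1) was modelled on the treatment alone with limma 3.58.1 in R 4.3.3 (trend in the moderation, two-sided), with Benjamini-Hochberg adjustment over all kept genes and a threshold of 0.05; the code was tested on simulated data. Lists are described by counts and medians, with no test of the list. The members and lists were chosen with earlier results of these data known. Values in every library are given for genes past the threshold with an absolute log2 fold change of at least 0.8, for genes fixed by name (HARS1, HARS2, WARS1, KARS1, GARS1, AIMP1, AIMP2, EEF1E1) and for the smallest difference; IARS2 and some accessory genes were added after their values were seen. Accessory genes are named past an absolute log2 fold change of 1, plus ATF4, EIF2AK4, GCN1, EEF1A1 and XPOT; others named among them were chosen after their values were seen. Alternatives were pseudocounts of 0.1 and 0.5, 2 other filters, 4 other scalings, 4 other tests, dropping each library, and dropping NC-2 under median-ratio scaling. A fit that drops 3 libraries (NC-2 and the LY libraries 1 and 2) was added after seeing the data. Depth is unknown, so no counting interval is given.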

Additional observations from a re-analysis of the deposited data

Results flagged for a closer look

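In each group of 5 libraries, the highest or lowest value was marked when its gap to the nearest other, divided by the range of the group, exceeded 0.71. Of 100 groups examined (50 genes in LY and DMSO) 18 were marked, where chance marks about 1 in 20. NC-2 accounted for 14 of the 18, each time as the lowest control. Synthetase genes so marked, with the NC-2 value before the range of the other 4 controls, were AARS1 (191 against 309 to 331 TPM), HARS1 (104 against 169 to 185 TPM), KARS1 (251 against 329.9 to 351 TPM), SARS1 (152 against 193 to 199 TPM), VARS1 (58.3 against 84.3 to 90.3 TPM), AARS2 (6.56 against 12.3 to 13.7 TPM), CARS2 (65.0 against 77.6 to 82.0 TPM), EARS2 (15.6 against 23.1 to 25.8 TPM), HARS2 (23.6 against 40.1 to 43.8 TPM), IARS2 (88.9 against 129 to 142 TPM), TARS2 (38.2 against 49.4 to 51.4 TPM) and VARS2 (12.9 against 25.6 to 29.3 TPM). NC-2 was also low for POP5 (28.3 against 54.6 to 59.9 TPM) and TSEN34 (67.7 against 152 to 165 TPM). NC-2 held 37.5% mitochondrially encoded TPM, against 12.2% to 14.1% in the other controls; the part of this share in the low values was not tested. The other 4 marked values, each the highest of its group, were SARS2 in LY-5 (17.7 against 13.2 to 14.3 TPM), PTRH2 in LY-3 (153 against 107 to 119 TPM), EEF1A1 in NC-3 (10306 against 5840.3 to 6849.9 TPM) and RPP25 in NC-3 (35.2 against 14.8 to 20.4 TPM).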

How the results depend on the processing

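Of the 25 changed genes of the list, 18 kept their direction and their call in all 24 alternatives, and 7 (GARS1, LARS1, NARS2, RARS2, TARS2, WARS2 and EEF1E1) lost the call in at least 1. Of the 13 that did not pass, 8 passed in at least 1. The number of changed genes over the whole table stayed within 1.5 times of 7538 in every alternative (6371 to 8449). Of the list, 20 rose as deposited and 13 with upper-quartile scaling; 5 fell as deposited, 9 with quantile normalization, 9 with upper-quartile scaling, 9 with NC-2 dropped under median-ratio scaling, and 8 once mitochondrial transcripts and the 50 most abundant genes were taken out. Of the mitochondrial enzymes, 8 rose as deposited and 4 with upper-quartile scaling; 1 fell as deposited, 3 with median-ratio, quantile or upper-quartile scaling, with the abundant genes removed, with array weights, or without NC-2, LY-1 and LY-2, and 4 with NC-2 dropped under median-ratio scaling. Leaving out 1 library at a time gave 1 to 3 falling mitochondrial enzymes, 3 without NC-2. GARS1 turned to -0.0087 with upper-quartile scaling. AARS2 turned to -0.25 with NC-2 dropped under median-ratio scaling. GCN1 turned to -0.26 with quantile, -0.28 with upper-quartile scaling and -0.19 with the abundant genes removed. The cause of these shifts was not tested beyond the settings themselves. A typical tested gene (the median) had a log2 fold change of 0.17 as deposited, 0.034 under median-ratio scaling, 0.051 after quantile normalization and -0.10 when upper quartiles were matched; relative to it the list's median was 0.16, 0.15, 0.025 and 0.14. All 221 recomputed values of the 17 cytosolic to mitochondrial ratios moved by less than the spread between replicates. They came from dropping libraries, median-ratio scaling and a pseudocount of 0.1. Dropping 1 of 5 libraries cannot move a group mean beyond that spread, and median-ratio scaling nearly cancels within a ratio. Most of these values were thus bound to stay, and quantile normalization was not applied to the ratios. No paired analysis was possible because the control columns carry numbers that no label ties to single DMSO samples. The depth is unknown.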

Other observations

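The promoter windows were also read for the E-box CACGTG, a palindrome that MYC and related factors are known to bind. It stood in 5 of 33 genes of the list with a window (AIMP2, CARS2, EARS2, IARS1 and MARS2), beside 1673 of 15272 listed genes (10.95%). Of these 5, AIMP2, CARS2 and MARS2 rose and EARS2 and IARS1 did not pass. The core of the interferon-stimulated response element stood in WARS1 and EARS2 among the 33, and neither gene passed.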
